A study of Mus musculus with 2 samples.

Results

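Mast cell genes were followed in imiquimod (IMQ)-treated mouse skin, as the rows of 7 genes (Mcpt4, Cma1, Cpa3, Tpsb2, Kit, Fcer1a and Hdc) taken by their symbols from the 19465 genes of a spatial gene expression assay. All 7 were measured in both sections. The layer of skin that held them, their detection in the same spots and the difference between the sections at equal depth were examined. One section came from an S1pr2 f/f mouse, whose floxed S1pr2 alleles are intact without Cre, and 1 from an S1pr2 f/f K14-Cre mouse, which carries the same floxed alleles and a Cre driven by the keratin 14 promoter, active in keratinocytes. Back skin of both mice was depilated 1 day before IMQ, at 8 weeks of age, and 62.5 mg of cream with 5% IMQ was then applied each day for 7 days. With 1 section per genotype and no untreated section analysed here, genotype, animal and section cannot be told apart, and no test between the genotypes was possible.

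Mast cells are tissue-resident cells of haematopoietic origin that lie in connective tissue, often near vessels, nerves and fat. They store histamine and proteases in granules bound to heparin and release them when IgE on their surface meets antigen. Survival of mast cells depends on the receptor KIT and its ligand, stem cell factor. Of the 7 genes, Mcpt4 and Cma1 encode granule proteases of the chymase family, Tpsb2 a tryptase and Cpa3 the granule carboxypeptidase A3. Kit encodes the stem cell factor receptor, which melanocytes also carry. Fcer1a encodes the alpha chain of the high-affinity IgE receptor, which basophils share, and Hdc the enzyme that makes histamine. On mm10, Mcpt4 (chr14:56059744-56062310) and Cma1 (chr14:55941451-55944675) lie in a cluster of related protease genes, while Cpa3 (chr3:20215616-20242209), Tpsb2 (chr17:25366308-25368096), Kit (chr5:75574987-75656722), Fcer1a (chr1:173221269-173227232) and Hdc (chr2:126593659-126624025) lie elsewhere.

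The assay captured probe-derived molecules from a 10 µm section on spots of an 11 mm array, and each spot can hold several cells or parts of cells. Each captured molecule was counted once by its unique molecular identifier (UMI), and levels are given as UMIs per 1000000 UMIs of the same spots (CPM). The S1pr2 f/f section had 1282 spots and 5315351 UMIs (median 3542.5 per spot), and the S1pr2 f/f K14-Cre section had 981 spots and 2845826 UMIs (median 2319). These are the spots of the deposited matrices, and the study's text gives slightly different numbers. The spots shared 357 array barcodes, none with identical counts. As a background, 1226 olfactory, vomeronasal, taste and trace amine receptor genes, which belong to sensory tissues, were summed. These averaged 2.21 CPM per gene in S1pr2 f/f and 5.98 CPM in S1pr2 f/f K14-Cre. S1pr2, the floxed gene, had 154 UMIs against 54 (log2 ratio of S1pr2 f/f K14-Cre over S1pr2 f/f of -0.61, interval -1.09 to -0.15). Every interval given is a 95% interval for counting error only, and leaves out the spread between animals. Intervals of levels and ratios take each UMI as independent. UMIs gathered in spots, up to 13 of Cma1 in 1 spot of S1pr2 f/f, so these intervals can be too narrow within a section too. In such tissue spots, fewer mast cells and less RNA per mast cell cannot be told apart.

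Among the granule proteases, both chymase genes stood well above this background in each section. Cma1 had 301 UMIs in 153 spots of S1pr2 f/f (56.6 CPM) and 94 UMIs in 54 spots of S1pr2 f/f K14-Cre (33.0 CPM). Mcpt4 had 165 UMIs in 107 spots (31.0 CPM) and 70 UMIs in 46 spots (24.6 CPM). Receptor genes with as many UMIs as Cma1 numbered 0 and 2 in the sections, and as many as Mcpt4 1 and 3. Tpsb2 had 79 UMIs (14.9 CPM) and 54 UMIs (19.0 CPM). Cpa3 had 62 UMIs (11.7 CPM) and 28 UMIs (9.84 CPM). Cpa3 of S1pr2 f/f K14-Cre was 1.65-fold over the mean receptor gene, and 171 of the 1226 receptor genes had at least as many UMIs. Mcpt1 and Mcpt2, related mast cell proteases, had 21 and 15 UMIs in S1pr2 f/f and 34 and 16 in S1pr2 f/f K14-Cre.

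Kit, Fcer1a and Hdc each had between 34 and 61 UMIs in a section. Kit had 53 UMIs in 38 spots of S1pr2 f/f (9.97 CPM) and 34 UMIs in 28 spots of S1pr2 f/f K14-Cre (11.9 CPM). Fcer1a had 43 UMIs in 31 spots (8.09 CPM) and 46 UMIs in 35 spots (16.2 CPM). Hdc had 61 UMIs in 48 spots (11.5 CPM) and 37 UMIs in 27 spots (13.002 CPM). These genes in S1pr2 f/f were 3.65-fold to 5.18-fold over the mean receptor gene, and in S1pr2 f/f K14-Cre 2.00-fold to 2.70-fold. The probes are not given in the sources used here, so levels of different genes are not ranked against each other, and reads shared between related proteases could not be checked.

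Because the chymase genes and Cpa3 were often detected in the same spots, the sequences just before their starts are shown, from RefSeq on GRCm38.p6. GATA factors are known regulators of mast cell genes, and the letters AGATAA were searched on both strands. Alternative forms of the same motif, AGATAG among them, were searched in the same way. The remaining forms were TGATAA and, as the last one, TGATAG. Capitals mark the matches. Each window runs from 250 bases before to 50 bases after a RefSeq start of the gene, 5′ to 3′ on the gene's strand. That strand is minus for all 3 genes: Mcpt4 at chr14:56062261-56062560, Cma1 at chr14:55944626-55944925 and Cpa3 at chr3:20242132-20242431.
Mcpt4: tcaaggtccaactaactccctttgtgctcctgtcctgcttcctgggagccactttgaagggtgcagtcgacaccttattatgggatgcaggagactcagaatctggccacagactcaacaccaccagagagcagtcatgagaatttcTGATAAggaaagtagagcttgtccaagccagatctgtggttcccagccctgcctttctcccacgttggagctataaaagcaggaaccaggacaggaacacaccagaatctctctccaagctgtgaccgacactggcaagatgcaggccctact
Cma1: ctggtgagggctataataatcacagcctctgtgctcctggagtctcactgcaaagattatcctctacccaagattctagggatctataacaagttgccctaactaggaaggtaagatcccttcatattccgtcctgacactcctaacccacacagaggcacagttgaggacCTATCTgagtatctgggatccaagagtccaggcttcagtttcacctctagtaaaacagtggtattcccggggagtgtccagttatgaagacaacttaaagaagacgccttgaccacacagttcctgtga
Cpa3: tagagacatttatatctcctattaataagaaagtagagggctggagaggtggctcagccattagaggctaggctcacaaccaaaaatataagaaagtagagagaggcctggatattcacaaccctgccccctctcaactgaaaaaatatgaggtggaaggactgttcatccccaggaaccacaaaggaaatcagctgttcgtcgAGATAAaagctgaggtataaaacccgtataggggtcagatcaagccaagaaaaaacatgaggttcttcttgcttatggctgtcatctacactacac
The match began 103 bases before the start in Mcpt4, 79 in Cma1, where it lies on the other strand and reads CTATCT, and 46 in Cpa3. A window was at hand for 6 of the 7 genes, and 5 of them held a match, Fcer1a (92 bases before the start) and Hdc (221, at an inner start of the gene) besides these. Neither Kit window held one. The starts used for Cpa3 and Fcer1a lie slightly inside the gene spans given above. Of all 32851 RefSeq windows of this length, 29.8% held at least 1 match, so the letters are common, and a match is not a shown binding site.

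To place the genes in the skin, each spot with at least 500 UMIs (1096 in S1pr2 f/f, 947 in S1pr2 f/f K14-Cre) was given to the layer whose marker list was highest in it. Lists for epidermis, dermis, fat and muscle were used, and the resulting spots are called epidermis-list spots and so on. The layers are ranges of a score, and 101 and 72 spots lay near a cut. The dermis-list spots of S1pr2 f/f K14-Cre were led by developmental muscle genes (Tnnc1, Myh3, Myh8, Myl4) and the matrix genes Postn and Tnc, unlike those of S1pr2 f/f (Gli1, Wnt5b, Dct), so the dermis-list values of the sections do not describe the same mixture of cells.

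Granule protease UMIs were densest below the epidermis in both sections. Summed, Mcpt4, Cma1, Cpa3 and Tpsb2 reached 31.8 CPM in epidermis-list spots of S1pr2 f/f, 170 CPM in dermis-list, 297 CPM in fat-list and 112 CPM in muscle-list spots. The same layers of S1pr2 f/f K14-Cre had 46.8, 129, 166 and 66.1 CPM. The log2 ratio of dermis-list over epidermis-list spots was 2.42 (interval 2.03 to 2.83) in S1pr2 f/f and 1.46 (0.91 to 2.03) in S1pr2 f/f K14-Cre. For fat-list over epidermis-list spots it was 3.23 (2.83 to 3.63) and 1.83 (1.24 to 2.43). Fat-list exceeded dermis-list spots in S1pr2 f/f by 0.80 (0.51 to 1.10), whereas in S1pr2 f/f K14-Cre the interval of that ratio included 0 (0.37, -0.14 to 0.87).

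**Figure D1:**
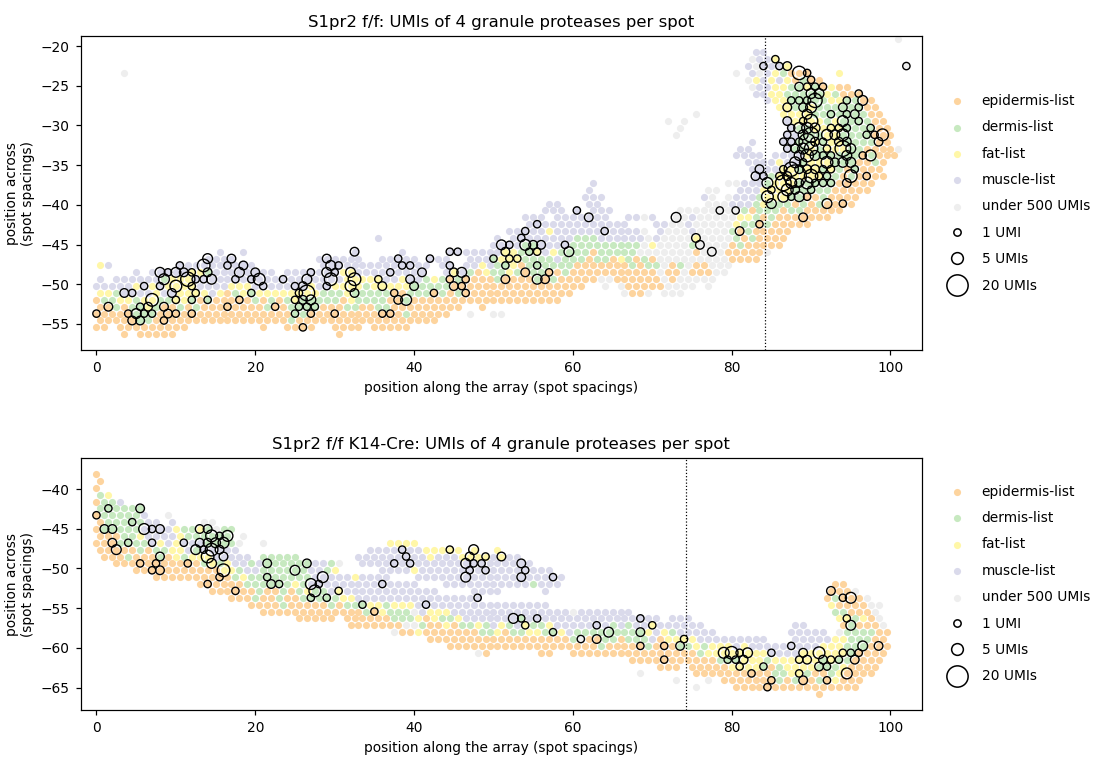
Position of protease UMIs in each section. Axes are array positions in spot spacings, spots are coloured by layer list (light grey for under 500 UMIs), black circles grow with the summed UMIs of Mcpt4, Cma1, Cpa3 and Tpsb2, and the dotted line marks the start of the last segment. Circles crowd the bent right end of S1pr2 f/f (188 CPM, against 78.5 CPM left of the line); stray spots away from the tissue lie outside the frame.

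As shares of spots, 33.5% of dermis-list (84 spots, interval 27.7 to 39.7) and 38.4% of fat-list spots (58 of 151, 30.6 to 46.7) of S1pr2 f/f held a protease UMI, against 12.0% of epidermis-list spots (47 of 392, 8.94 to 15.6). The shares in S1pr2 f/f K14-Cre were 20.8% (40 of 192, 15.3 to 27.3), 21.95% (27 of 123, 14.99 to 30.3) and 9.003% (28 of 311, 6.07 to 12.7). Dermis-list and fat-list spots together held 54.6% of the protease spots with a layer in S1pr2 f/f and 51.1% in S1pr2 f/f K14-Cre. Of all spots with a layer, dermis-list spots were 22.9% and 20.3%, and fat-list spots 13.8% and 12.99%. With the last segment of S1pr2 f/f left out, its 54.6% fell to 35.4%. That omission kept 146 of 251 dermis-list and 85 of 151 fat-list spots, but 297 of 392 epidermis-list and 283 of 302 muscle-list spots. The part of this loss in the fall was not tested. The share in S1pr2 f/f K14-Cre without its last segment is not given here. The epidermis-list signal of S1pr2 f/f K14-Cre was close to background: its 46.8 CPM compare with 36.6 CPM for 4 mean receptor genes in the same spots, and no single one of the 7 genes exceeded the receptor genes' 95th percentile there (20.7 CPM). With the mean receptor gene of the same spots taken off, the dermis-list over epidermis-list ratio was 3.30 in S1pr2 f/f K14-Cre and 2.67 in S1pr2 f/f. These ratios have no interval, and rest on 9.33 and 57.8 protease UMIs left in the epidermis-list spots. Their order between the sections is therefore not read.

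Gene by gene, Cma1 had the same order of layers in both sections, with 11.6, 80.3, 163 and 57.6 CPM in epidermis-list, dermis-list, fat-list and muscle-list spots of S1pr2 f/f and 5.44, 47.3, 79.1 and 32.0 CPM in S1pr2 f/f K14-Cre. Mcpt4 was likewise highest in fat-list spots, with 80.2 CPM in S1pr2 f/f and 70.9 CPM in S1pr2 f/f K14-Cre. Tpsb2 was as high in dermis-list (24.7 CPM) as in fat-list spots (24.8 CPM) of S1pr2 f/f. Its highest level in S1pr2 f/f K14-Cre lay in dermis-list spots (37.5 CPM from 23 UMIs, against 10.9 CPM from 4 UMIs in fat-list). Cpa3 was highest in fat-list spots of S1pr2 f/f (29.2 CPM) and in dermis-list spots of S1pr2 f/f K14-Cre (19.6 CPM, from 12 UMIs).

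Kit had its highest level in fat-list spots of S1pr2 f/f (23.3 CPM) and in dermis-list spots of S1pr2 f/f K14-Cre (21.2 CPM), and Fcer1a likewise (20.4 and 31.0 CPM). With layers from Leiden clusters in place of the lists, the direction turned for Fcer1a of S1pr2 f/f, from a log2 ratio of fat-list over epidermis-list spots of 2.98 to -1.16. These maxima rest on 12 to 20 UMIs for Cpa3, Kit and Fcer1a, and their intervals overlap those of the next layer. Hdc departed from the proteases. Its level was highest in dermis-list spots of S1pr2 f/f (25.6 CPM, 29 UMIs), where fat-list spots had 10.2 CPM, a log2 ratio of fat-list over dermis-list of -1.33 (-2.76 to -0.10). Its highest value in S1pr2 f/f K14-Cre was in epidermis-list spots (20.7 CPM, 19 UMIs), the layer with the highest receptor background (9.16 CPM per gene, against 1.74 CPM in S1pr2 f/f). The part of that background in the Hdc value was not tested.

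All 7 genes were at least 2-fold higher in dermis-list than in epidermis-list spots of S1pr2 f/f, where 23.8% of 12065 genes were. Only Cma1, Tpsb2 and Fcer1a (3 of the 7) were so in S1pr2 f/f K14-Cre, where 15.3% of 13082 genes were. Without the last segment of S1pr2 f/f, Tpsb2 (log2 ratio 0.16) and Kit (0.64) were no longer past 2-fold there. With the same omission in S1pr2 f/f K14-Cre, Cpa3 was past 2-fold too (21.6 over 7.65 CPM, from 11 and 5 UMIs). The share of all genes without that segment is not given here.

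**Figure D2:**
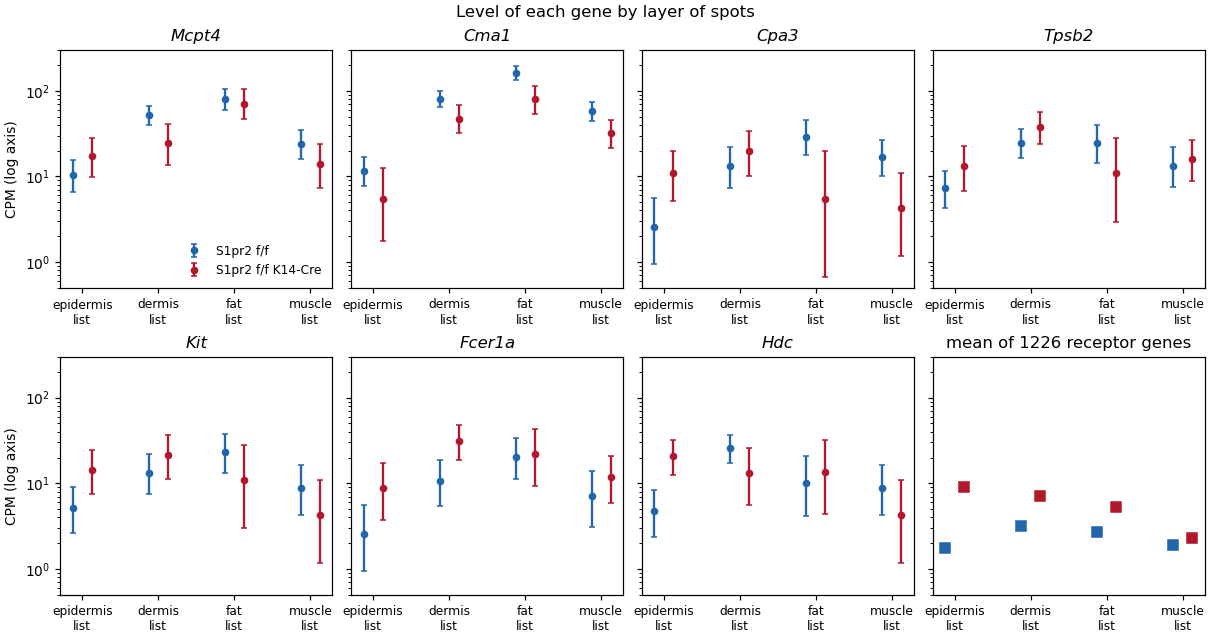
Level of each gene in the 4 layers of spots. The vertical axis is CPM on a log scale, points are section totals (blue S1pr2 f/f, red S1pr2 f/f K14-Cre) and bars 95% Poisson intervals; the last panel gives the mean of the 1226 receptor genes. Cma1 peaks in fat-list spots in both sections, at 163 and 79.1 CPM, and Hdc does not.

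Depth was also read without the layer lists of the lower skin, as the distance of a spot from the nearest epidermis-list spot. The summed proteases of S1pr2 f/f were 31.8 CPM in the epidermis-list spots themselves, 74.3 CPM at 1 spot spacing, 161 CPM at 2 and 261 CPM at 3. They stayed high below that, at 207 CPM at 4 to 5 spacings and 356 CPM (264 to 471, 59 spots) at 6 or more. For S1pr2 f/f K14-Cre the highest value was 143 CPM (107 to 186) at 2 spacings, followed by 106, 101 and 75.2 CPM further down. Protease spots had a median distance of 2.65 spacings in S1pr2 f/f and 1.73 in S1pr2 f/f K14-Cre, where all spots with a layer had 1 and 1.73. Hdc spots had a median of 1 spacing in each section.

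**Figure D3:**
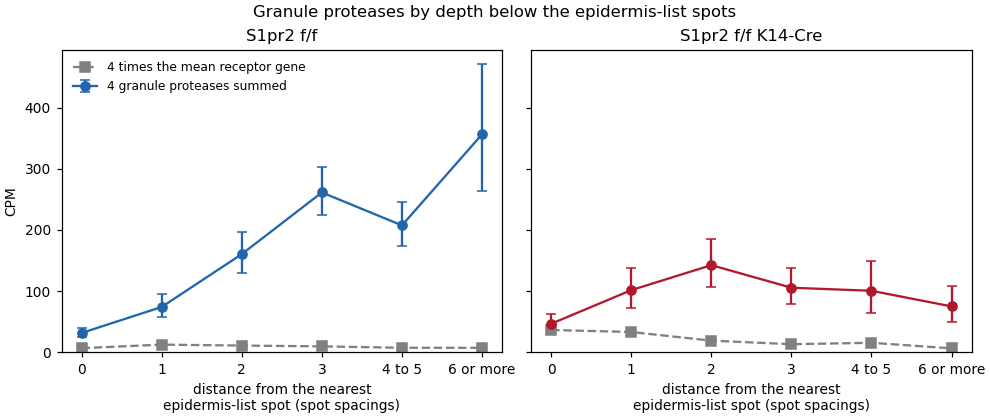
Summed Mcpt4, Cma1, Cpa3 and Tpsb2 against distance from the epidermis-list spots. The horizontal axis is in spot spacings, the vertical axis in CPM, bars are 95% Poisson intervals, and grey squares give 4 times the mean receptor gene. Levels climb from 31.8 to 261 CPM over 3 spacings in S1pr2 f/f and peak at 143 CPM at 2 spacings in S1pr2 f/f K14-Cre.

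At least 2 of the 7 genes were detected together in 100 spots of S1pr2 f/f (7.80%) and 45 of S1pr2 f/f K14-Cre (4.59%). Without the last segment of each section, these were 42 of 962 spots (4.37%, 3.16 to 5.86) and 33 of 736 (4.48%, 3.11 to 6.24). Those shares are not at equal depth. Median UMIs per spot in the remaining segments were 5995, 3081.5 and 665 in S1pr2 f/f and 3836.5, 2003 and 1647 in S1pr2 f/f K14-Cre. Over whole sections, at least 3 of the 7 genes were found in 40 and 5 spots, and the fullest spots held 6 and 4. Deeper spots hold more genes: the median total was 5312.5 UMIs in spots with at least 2 of the genes and 2483 in spots with none in S1pr2 f/f, and 3404 against 2149 in S1pr2 f/f K14-Cre. After every spot with at least 1000 UMIs was thinned to 1000, 22 of 978 spots (2.25%) and 10 of 870 spots (1.15%) held at least 2.

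The chymase genes were the pair most often found together. Mcpt4 and Cma1 shared 43 spots in S1pr2 f/f, where the product of their shares gives 12.8 (3.37-fold), and 11 spots in S1pr2 f/f K14-Cre, where it gives 2.53 (4.34-fold). Receptor genes shared spots with Cma1 at 1.43-fold and 0.990-fold of that product. The product ignores layer and place, and the receptor genes were not matched for them. In S1pr2 f/f both chymase genes were denser in dermis-list and fat-list spots and in the last segment. The part of such shared layers and places in the counts was not tested. Cma1 and Cpa3 shared 22 spots (4.10-fold) and 6 spots (4.74-fold). Among Cpa3 spots, 48.9% held Cma1 in S1pr2 f/f and 26.1% in S1pr2 f/f K14-Cre.

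**Figure D4:**
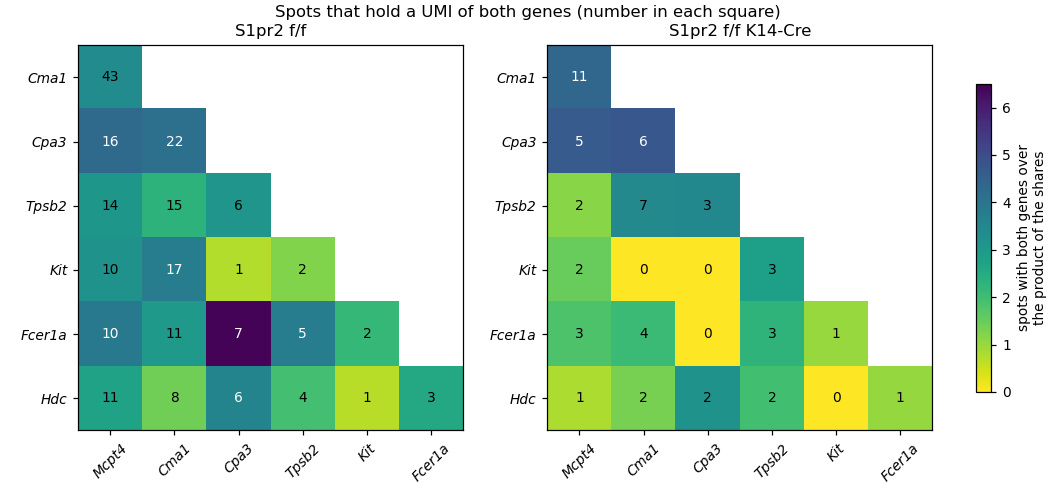
Spots holding a UMI of both genes of a pair. Numbers in the squares are spots, and colour is that number over the product of the shares of the single genes. Mcpt4 with Cma1 has 43 spots in S1pr2 f/f and 11 in S1pr2 f/f K14-Cre, and Cma1 with Kit has 17 and 0. Pairs of Hdc or Kit with Cpa3, Tpsb2 or Fcer1a hold few spots, and their colour rests on these.

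The same spots were also read as levels per UMI, which take spot depth into account but not layer or place. In spots with a Cma1 UMI, Mcpt4 stood at 96.7 CPM, against 19.5 CPM in all other spots of S1pr2 f/f (log2 ratio 2.31, 1.85 to 2.77). The K14-Cre section had 84.3 and 20.04 CPM (2.07, 1.19 to 2.88). Cpa3 was higher in Cma1 spots by 2.60 (1.83 to 3.37) and 2.39 (1.00 to 3.64), and Tpsb2 by 1.31 (0.55 to 2.02) and 1.58 (0.42 to 2.59). Intervals of both genes lay above 0 in each section with Cma1 as the reference. With Mcpt4 as the reference, Tpsb2 was higher in S1pr2 f/f (1.82, 1.07 to 2.54), while in S1pr2 f/f K14-Cre the interval included 0 (0.08, -2.24 to 1.71) and the genes shared 2 spots (1.15-fold of the product).

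Kit, Fcer1a and Hdc were less regular. Kit was higher in Cma1 spots of S1pr2 f/f by 2.23 (1.39 to 3.06), but none of its 34 UMIs in S1pr2 f/f K14-Cre fell in the 54 Cma1 spots. Taking 0 spots to allow up to 3, the share of Cma1 spots with a Kit UMI is limited to 5.56%. The product of shares there gives 1.54 spots. With Tpsb2 as the reference, Kit was higher in S1pr2 f/f K14-Cre by 1.91 (0.35 to 3.21), from 6 UMIs. The interval in S1pr2 f/f included 0 (-0.77, -3.86 to 1.15). In Mcpt4 spots of S1pr2 f/f K14-Cre the interval of Kit included 0 (0.17, -2.94 to 2.14), and its Cpa3 spots held no Kit UMI. Fcer1a was higher in Cma1 spots of S1pr2 f/f by 2.03 (1.07 to 2.96), and the interval in S1pr2 f/f K14-Cre included 0 (0.68, -1.02 to 2.02). For Hdc both intervals included 0 in Cma1 spots, at -0.22 (-1.51 to 0.86) and -0.42 (-3.52 to 1.54). In Cpa3 spots Hdc had 1.498 (0.12 to 2.64) and 2.35 (0.64 to 3.72), from 7 and 5 UMIs in 6 and 2 shared spots. With Hdc as the reference, Cpa3 was higher in S1pr2 f/f (1.36, 0.08 to 2.44). The interval in S1pr2 f/f K14-Cre then included 0 (0.88, -2.24 to 2.88).

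Since melanocytes express Kit, its level was read against melanocyte markers too. Kit in S1pr2 f/f was 17.2 CPM in protease spots without a melanocyte marker, 12.96 CPM in melanocyte marker spots without a protease, 24.1 CPM in spots with both and 4.86 CPM in spots with neither. The same classes of S1pr2 f/f K14-Cre had 9.92, 0, 50.4 and 13.2 CPM, from 4, 0, 4 and 26 UMIs. Spots with neither were 749 of the 981 spots there. They held 26 of the 34 Kit UMIs, and 1965669 of the 2845826 UMIs of all genes. Fcer1a stood at 21.0 CPM in protease spots without a melanocyte marker and at 4.86 CPM in spots with neither in S1pr2 f/f, and at 22.3 and 14.2 CPM in S1pr2 f/f K14-Cre.

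Protease spots also lay next to each other. Of the neighbours of a protease spot, 42.4% were protease spots in S1pr2 f/f, against 17.1% of the neighbours of other spots, and in S1pr2 f/f K14-Cre 24.2% against 13.04%. The largest connected group held 99 spots in S1pr2 f/f and 16 in S1pr2 f/f K14-Cre, at unequal depth, and 36 and 14 where a spot needed at least 2 protease UMIs.

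Between the sections, none of the 7 genes was past 2-fold in either direction, where 28.5% of the 18125 genes tested were at least 2-fold higher and 4.59% at least 2-fold lower in S1pr2 f/f K14-Cre. Among the 6536 genes with as many UMIs over both sections as the 7 (87 to 395), 10.7% were higher and 4.88% lower by this measure. Cma1 was lower in S1pr2 f/f K14-Cre by a log2 ratio of -0.78 (-1.13 to -0.44), and summed proteases by -0.40 (-0.62 to -0.19). Fcer1a was higher by 1.00 (0.37 to 1.63), just under 2-fold. Intervals of Mcpt4 (-0.34, -0.76 to 0.08), Cpa3 (-0.25, -0.94 to 0.42), Tpsb2 (0.35, -0.17 to 0.87), Kit (0.26, -0.41 to 0.91) and Hdc (0.18, -0.45 to 0.79) included 0, and the sign of Tpsb2, Kit and Hdc turned under other scalings (edgeR's TMM factor for all 3, the receptor background taken off for Kit and Hdc, and equal depth or omission of the last segment for Hdc). Omission of the last segment also put Mcpt4 at 0.01 (-0.56 to 0.57) and Tpsb2 at 0.69 (0.03 to 1.35). Cpa3 had 0.57 (-0.66 to 1.76) in dermis-list spots alone. The median over the 7 was 0.18, beside 0.40 over all genes tested, 0.14 over genes of like UMIs and 1.49 over the receptor genes. With the TMM factor, the median of all genes was 0.03 and Cma1 was past 2-fold lower (-1.15), as were 11.0% of the 18125 genes.

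At equal depth, after thinning spots to 1000 UMIs, 9.61% of 978 spots held a protease UMI in S1pr2 f/f (interval 7.84 to 11.6) and 7.24% of 870 in S1pr2 f/f K14-Cre (5.61 to 9.17). Without thinning these shares were 20.7% and 13.5%. The intervals of the shares at equal depth overlap. Thinning left 139 and 85 UMIs of the summed proteases, a log2 ratio of -0.54 (-0.95 to -0.14). Cma1 was found in 5.52% (4.17 to 7.14) and 3.10% (2.05 to 4.48) of the thinned spots, and its log2 ratio was -0.91 (-1.55 to -0.31). Kit had 6 and 14 UMIs after thinning, a ratio of 1.39 with an interval that included 0 (-0.08 to 3.06), and Fcer1a 11 and 17 (0.80, -0.38 to 2.04).

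**Figure D5:**
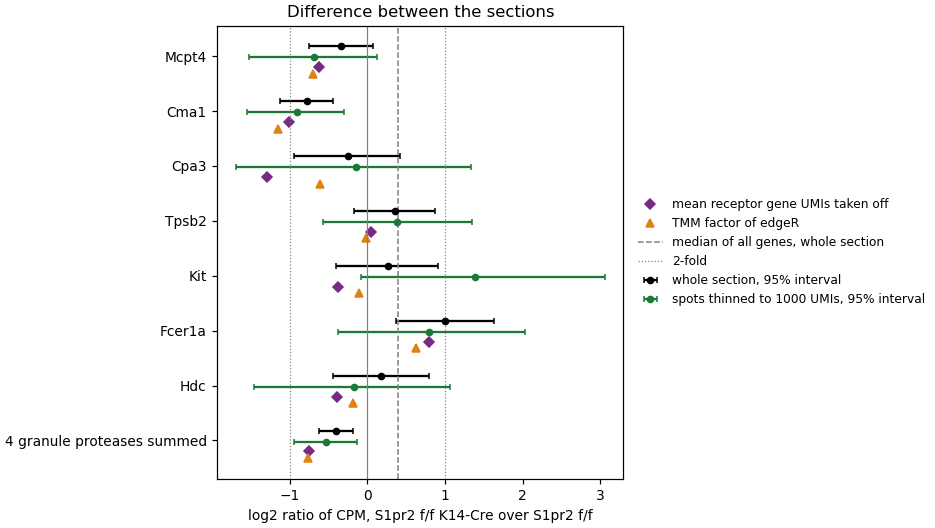
Log2 ratio of S1pr2 f/f K14-Cre over S1pr2 f/f for each gene and for the 4 summed proteases. Black points are whole sections and green points spots thinned to 1000 UMIs, both with 95% intervals; diamonds have the mean receptor gene taken off, triangles use the TMM factor, the dashed line is the median of all genes (0.40) and dotted lines mark 2-fold. In the settings drawn Cma1 lies below 0 and Fcer1a above, and Tpsb2, Kit and Hdc fall on both sides.

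The difference was not even along the sections. Each section was divided along the array into 4 segments of equal spot number, a division made after seeing the data. The summed proteases were 74.9, 77.2, 112 and 188 CPM from left to right in S1pr2 f/f and 84.0, 67.4, 79.8 and 114 CPM in S1pr2 f/f K14-Cre. Over segments 1 to 3 the sections were level, at 78.5 and 78.7 CPM (log2 ratio 0.00, -0.28 to 0.28). Over the last segment they differed by -0.72 (-1.11 to -0.35), but these ends were unlike in makeup. There, dermis-list spots were 36.8% of the spots with a layer in S1pr2 f/f and 16.6% in S1pr2 f/f K14-Cre. Epidermis-list spots were 33.3% and 42.8%, fat-list spots 23.2% and 22.7%, and muscle-list spots 6.67% and 17.9%. For Cma1 the ratio was -0.26 (-0.70 to 0.18) over segments 1 to 3 and -1.24 (-1.89 to -0.63), from 98.6 and 41.9 CPM, over the last one. Tpsb2 was higher in S1pr2 f/f K14-Cre over segments 1 to 3 (0.69, 0.03 to 1.35), from 11.4 and 18.4 CPM. Over the last segment its ratio was -0.07 (-1.11 to 0.87).

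The last segment of S1pr2 f/f was the bent right end of that section and differed in makeup. Dermis-list spots were 36.8% and fat-list spots 23.2% of its spots with a layer, against 14.1% to 21.0% and 5.10% to 16.3% in the other segments, and muscle-list spots 6.67% against 32.7% to 41.8%. Within its layers the proteases were also higher: fat-list spots had 485 CPM there and 166 CPM in segments 1 to 3, and dermis-list spots 221 and 107 CPM. Fat-list values of S1pr2 f/f K14-Cre were 217 and 134 CPM, and the dermis-list values 156 and 123 CPM. Fcer1a had 5.85 and 16.6 CPM over segments 1 to 3 (1.51, 0.70 to 2.35) and 12.8 and 14.5 CPM over the last (0.18, -1.12 to 1.36). It was the only 1 of the 7 past 2-fold over segments 1 to 3, where 25.4% of 16835 genes were at least 2-fold higher and 5.8% at least 2-fold lower.

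Within layers of whole sections, the summed proteases were lower in S1pr2 f/f K14-Cre in fat-list spots by -0.84 (-1.28 to -0.42), in muscle-list spots by -0.76 (-1.22 to -0.31) and in dermis-list spots by -0.40 (-0.80 to -0.02). With the last segment omitted, which was also chosen after the values were seen, the fat-list ratio was -0.31 (-0.98 to 0.33), the muscle-list ratio -0.52 (-1.002 to -0.06), and the dermis-list ratio turned to 0.21 (-0.34 to 0.76). In epidermis-list spots of whole sections the ratio was 0.56 (-0.02 to 1.12), beside the higher receptor background there. Intervals above 0 in that layer were those of Hdc (2.13, 0.98 to 3.35), Cpa3 (2.08, 0.48 to 3.82), Fcer1a (1.76, 0.04 to 3.56) and Kit (1.46, 0.21 to 2.72). Without the last segment those of Hdc (2.37, 0.99 to 3.90) and Fcer1a (2.08, 0.10 to 4.29) still lay above 0. The mean receptor gene in epidermis-list spots of whole sections had 1.74 CPM in S1pr2 f/f and 9.16 CPM in S1pr2 f/f K14-Cre. With it taken off, Hdc kept 10.6 UMIs in S1pr2 f/f K14-Cre, Kit 4.58, Cpa3 1.58 and Fcer1a -0.42. The part of this background in the ratios was not tested, and the share of all genes with such intervals is not given here. Hdc in dermis-list spots had an interval that included 0 over whole sections (-0.97, -2.31 to 0.19) and lay below 0 without the last segment (-1.60, -3.42 to -0.07). Intervals off 0 in dermis-list spots of whole sections were those of Fcer1a (1.55, 0.43 to 2.73), Mcpt4 (-1.09, -2.01 to -0.25) and Cma1 (-0.76, -1.42 to -0.15). Without the last segment those of Fcer1a (2.31, 0.48 to 4.74), Tpsb2 (1.83, 0.35 to 3.62) and Mcpt4 (-1.15, -2.40 to -0.02) lay off 0. The interval of Cma1 in dermis-list spots then included 0 (0.18, -0.73 to 1.09). In fat-list spots of whole sections, intervals of Cma1 (-1.05, -1.69 to -0.45) and Cpa3 (-2.42, -5.56 to -0.38) lay below 0. In muscle-list spots they had -0.85 (-1.53 to -0.21) and -1.98 (-3.998 to -0.39). Cpa3 had 2 and 4 UMIs in these layers of S1pr2 f/f K14-Cre. Without the last segment both intervals included 0 in fat-list spots. In muscle-list spots they lay below 0, at -0.69 (-1.39 to -0.01) and -1.81 (-3.83 to -0.20).

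Of 37 other genes known from mast cells, 34 were measured. Kitl, which encodes stem cell factor, had 72 and 70 UMIs (13.5 and 24.6 CPM, log2 ratio 0.86, 0.37 to 1.36). Of the 34, 28 were higher and 6 lower in S1pr2 f/f K14-Cre, 8 of them at least 2-fold higher and 0 at least 2-fold lower, with a median of 0.41. Of all 18125 genes tested, 67.3% were higher, 28.5% at least 2-fold higher and 4.59% at least 2-fold lower, with a median of 0.40. Only 13 exceeded the 95th percentile of the receptor genes in both sections. Set against all other spots, 5 were higher in protease spots of both sections with intervals above 0, as were 2.44% of the 18121 genes compared. These were Fcer1g, the signalling chain of the IgE receptor (log2 ratios 0.77 and 0.27), Tpsg1, a membrane-bound tryptase (1.35 and 1.58), Ndst2, which sulfates heparin (0.74 and 0.78), and Alox5 (0.91 and 1.22) and Alox5ap (0.55 and 0.54) of leukotriene synthesis. Several of these are also expressed in other myeloid cells: summed macrophage markers were 0.75 and 0.32 higher (log2 ratio) in protease spots than in other spots, and nerve markers 0.54 and 0.57. The receptor genes of the background were 0.22 (0.16 to 0.27) and 0.11 (0.06 to 0.16) higher there, a range that the interval of Fcer1g in S1pr2 f/f K14-Cre (0.06 to 0.47) overlaps. Their part in these values was not tested.

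Marker lists of other cells were read in the same way. The 4 measured basophil markers had 85 and 88 UMIs in all (15 to 27 and 16 to 30 per gene), and were 0.95 (0.50 to 1.40) higher in S1pr2 f/f K14-Cre, beside the 1.00 of Fcer1a. Some of these markers, that with 15 and 30 UMIs among them, also stand among the other mast cell genes above. The list therefore does not read basophils apart from mast cells. The mean receptor gene had 11.8 and 17.0 UMIs in the sections, and the median receptor gene was 1.49 higher in S1pr2 f/f K14-Cre. Hair and nerve markers were 0.96 and 1.39 higher too. The part of basophils in the Fcer1a value was not tested. Melanocyte markers had 420 and 233 UMIs (0.05, -0.19 to 0.29), and no marker of either list was at 0.

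The 5 genes whose pattern over spots was most like that of the summed proteases were Cd248, Timp2, Dcn, Crip1 and Ccl6. Likeness was Pearson's r of log counts over 978 and 870 spots, which share their depth and layer, and it was low throughout. Cd248, a stromal and pericyte surface protein, had r of 0.24 and 0.20, and the median over all genes compared was 0.015 and 0.0045. Cd248 was higher in fat-list (401 and 412 CPM) and dermis-list (265 and 504 CPM) than in epidermis-list spots (42.5 and 102 CPM). The matrix proteoglycan gene Dcn (0.23 and 0.16) was also lowest there.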

How the data were processed

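Spatial gene expression was measured with the Visium CytAssist assay for FFPE tissue in 2 skin sections, 1 per genotype, grouped by the genotype in the labels. As the authors deposited them, the values are whole-number counts of UMIs for each gene in each spot of the matrix, not normalized, with spot positions. The matrix header names Space Ranger 3.0.0, the submitters' processing notes name mm10, and the paper states that Partek Flow handled images and reads. The probe set is not given in the sources used here. Genes carry the symbols of the files, of which 11 occur more than once (none of the 7 genes).

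UMIs were summed per section, layer or segment and divided by all UMIs of the same spots. Genes entered the ratios between sections with at least 20 UMIs over both. Layers came from the highest of 4 marker lists in spots with at least 500 UMIs, and equal depth from thinning spots to 1000 UMIs without replacement, which left out 304 and 111 shallower spots. Intervals were exact Poisson (UMIs), conditional binomial (ratios) and Clopper-Pearson (shares; 0 of n as 3 counts), computed with scipy 1.17.1 in Python 3.11.15, which was tested on simulated data. Alternatives were TMM scaling (edgeR 4.0.16, R 4.3.3), Leiden clusters (leidenalg 0.10.2), other depths and filters, the receptor genes taken off, and, chosen after seeing the data, omission of the last segment or of the richest spot. With 1 section per genotype, no test between genotypes and no p-value is given, and past 2-fold stands in for a call.

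The genes and lists were chosen with earlier results of these data known. Named were the 7 genes, S1pr2, Kitl, other mast cell genes with at least 50 UMIs over both sections, and the 5 genes most like the summed proteases; Mcpt1 and Mcpt2 are named as related proteases, Mcpt2 outside this rule and after its values were seen.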

Additional observations from a re-analysis of the deposited data

Results flagged for a closer look

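Of 14 layer contrasts of single genes compared between the sections, 5 had opposite signs, and the differences between the sections were not tested. The log2 ratio of fat-list over epidermis-list spots was 3.499 in S1pr2 f/f and -0.997 in S1pr2 f/f K14-Cre for Cpa3 (difference -4.50), 1.76 and -0.26 for Tpsb2 (-2.02), 2.18 and -0.38 for Kit (-2.55) and 1.11 and -0.60 for Hdc (-1.71). For dermis-list over epidermis-list spots, Hdc had 2.44 and -0.66 (-3.10). In S1pr2 f/f K14-Cre these ratios rest on 2 to 8 UMIs in the upper layer of the ratio, and each of their intervals includes 0. The receptor background in epidermis-list spots was 9.16 CPM per gene in that section and 1.74 CPM in S1pr2 f/f, and its part in these ratios was not tested.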

How the results depend on the processing

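With 1 section per genotype, the values have no replicate check, and counts below about 20 UMIs limit Kit, Fcer1a, Hdc, Cpa3 and Tpsb2 within layers. In S1pr2 f/f K14-Cre they also limit Mcpt4 outside fat-list spots and Cma1 in epidermis-list spots. No paired analysis was possible because each group has 1 section. The log2 ratio of the summed proteases between sections (-0.40) was -0.77 with the TMM factor and -0.75 with the receptor background taken off, and it turned to 0.0023 without segment 4 of both sections, a choice made after seeing the data. TMM left 1 of the 7 genes higher and 6 lower, and put 3331 genes at least 2-fold higher and 1998 lower. Higher genes were 86.1% of the genes past 2-fold in the reported setting, 62.5% with TMM, and 49.3% with a minimum of 100 UMIs (703 higher). The receptor background taken off left 2 higher and 5 lower (Cpa3 -1.29). The share of thinned spots with a protease (9.61% and 7.24%) was 5.75% and 3.48% at 500 UMIs, 15.7% and 10.4% at 2000, 20.7% and 13.5% without thinning, and 12.8% and 10.4% in dermis-list spots alone. Without segment 4 this share was 7.34% in S1pr2 f/f, and the matching value of S1pr2 f/f K14-Cre is not given here. In S1pr2 f/f, dermis-list over epidermis-list was 2.84 with Leiden clusters and 2.97 when thinned, and fat-list over epidermis-list 2.01, 3.64 and, without segment 4, 2.67. In S1pr2 f/f K14-Cre these were 3.30 and 3.84 with the receptor background of the same spots taken off, which left 9.33 protease UMIs in its epidermis-list spots. Leiden gave no dermis-list cluster in that section. Fcer1a of S1pr2 f/f turned to -1.16 for fat-list over epidermis-list with Leiden clusters. The share of protease spots in dermis-list or fat-list spots was 63.1% and 61.7% with at least 2 UMIs, 35.4% in S1pr2 f/f without segment 4, and 36.6% in S1pr2 f/f K14-Cre with Leiden clusters. Spots with at least 2 of the genes numbered 22 and 10 when thinned, 27 and 9 with at least 2 UMIs of each, and 42 in S1pr2 f/f without segment 4. The causes were not tested. Across all settings, 30 main values and 16 of single genes moved beyond their limits, and 1 of each reversed a direction shared by its whole counting interval. The other 49 main values and 197 of single genes stayed within their limits. These limits were counting intervals, except for co-detection counts and numbers of genes past 2-fold, where a set fold of the reported value was used.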
